A study of Mus musculus with 2 samples.

Results

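Translation factor genes were examined in mouse spleen CD4 T cells that had been enriched for naive cells, in 1 Taf7 knockout sample and 1 Taf7 heterozygous sample. Members were all genes whose symbol starts with Eif and a digit, or with Eef1 or Eef2, and which had a transcript cluster, the array's unit of measurement, assigned to that symbol alone. For a gene with several such clusters the cluster with the highest mean was used. This gave 61 of the 19938 genes measured, 49 eIF genes (initiation factors and their regulators) and 12 eEF genes (elongation factors and their modifying enzymes). The rule uses symbols only, so kinases, binding proteins and methyltransferases named after a factor are included, and the label covers more than initiation.

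The knockout cells came from TAF7f/- animals that also carried the 8EIII-cre transgene, and are labelled Taf7 -/-. The heterozygous cells came from TAF7 f/- animals without Cre, labelled Taf7 +/-, so both samples shared 1 null allele and the knockout alone carried Cre. The effect of the Cre transgene and the effect of losing Taf7 cannot be told apart here. Both were on a C57/BL6 and 129 mixed background, and the cells were sorted for high TCR beta and CD4 and enriched for low CD44. Age, sex, the number of animals behind each sample and what drives Cre beyond the transgene name were not stated. Of the T cell markers, 8 of 8 measured were above the filter on low values, with log2 levels of 11.06 to 13.50 on the knockout array and 11.56 to 13.49 on the heterozygous array. Their linear signals summed to 58980 in the knockout and 64786 in the heterozygote. Of the 8, 4 were higher and 4 lower in the knockout, with a median difference of -0.03 and a range from -0.93 for Thy1 to 0.06 for Lef1. Markers of other spleen cells were mostly below the filter: 0 of 8 myeloid, 0 of 4 plasma cell, 0 of 2 erythroid, 1 of 5 B cell, 1 of 5 natural killer cell, 1 of 4 platelet and 1 of 2 CD8 T cell markers were above it. That CD8 T cell marker, Cd8b1, was at 10.24 in the knockout and 10.50 in the heterozygote, and Cd8a was at 7.65 and 7.63 in the same order. The part of these markers in the results was not tested, and fewer cells of a type and less RNA per cell cannot be told apart in such samples. Taf7 itself, whose protein is part of TFIID, had a log2 level of 7.79 in the knockout and 8.34 in the heterozygote, a difference of -0.55, and where its probes lie relative to the deletion was not stated.

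Protein synthesis starts when the small ribosomal subunit, with eIF1, eIF1A and eIF3, takes up initiator tRNA carried by GTP-bound eIF2, and is brought to the capped mRNA by eIF4F. eIF4F joins the cap-binding protein eIF4E, the scaffold eIF4G and the helicase eIF4A. After the start codon is found, eIF5 and eIF5B let the large subunit join, and eEF1 and eEF2 then drive elongation. Naive T cells keep translation low and raise it sharply on activation, and eIF2 kinases and eIF4E-binding proteins are among its known brakes.

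Each value is a log2 gene-level signal from 1 array, and a difference is the knockout level minus the heterozygous level. Since each genotype has a single array, nothing here has an error, a test or a replicate check. The filter kept genes with a mean over both arrays of at least 7.71, the 50th percentile of all rows, which left 57 of the 61 members and 10457 genes in all. The 4 members below it were Eif2s3y, Eif4a3l1, Eif4e1b and Eef1akmt3.

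Translation factor genes differed little between the arrays, and most small differences were toward lower levels in the knockout. Of the 57 members above the filter, 43 (75.4%) were lower in the knockout by any amount and 14 higher, where 59.1% of all genes above the filter were lower and 40.9% higher. The members' median difference was -0.11, against -0.05 over all genes above the filter. At fixed sizes their shares were near or under the background. A log2 difference of at least 0.32, the smallest of 3 fixed sizes, toward lower was seen for 6 members (10.5%), against 13.3% of all genes, and at least 1.5-fold lower were 2 (3.51%), against 3.17%. No member was higher by 0.32 or more, where 5.03% of all genes were, none was 1.5-fold higher (0.449% of all genes), and none was 2-fold lower (0.325%) or higher (0.0383%). After centring on the median of all genes 64.9% of members were lower, after removal of a trend with level 61.4% of members and 52.0% of all genes, and after quantile normalization 63.2% of members and 48.2% of all genes.

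**Figure D1:**
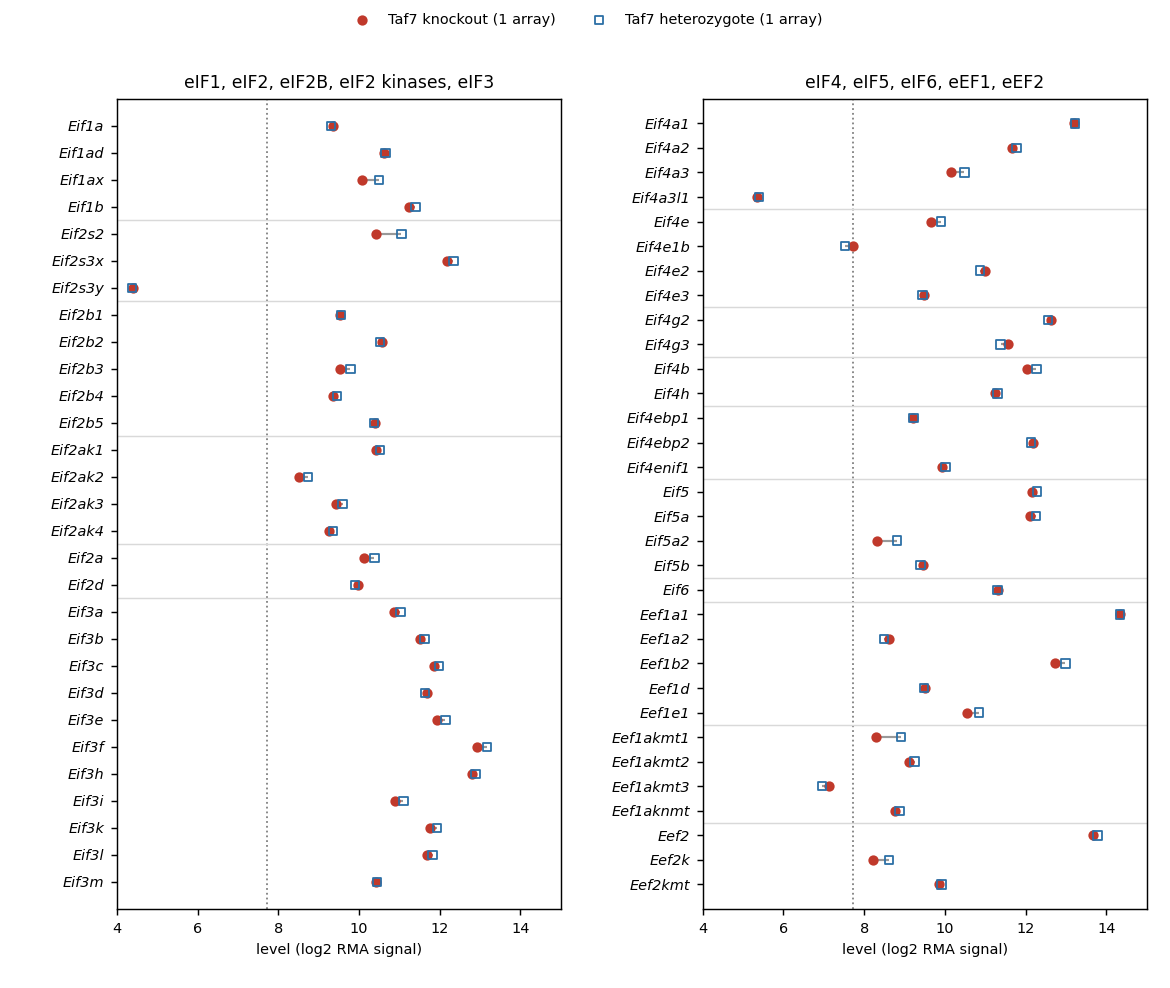
Log2 RMA signal of each of the 61 translation factor genes on the knockout array (filled red circles) and the heterozygous array (open blue squares), with families separated by grey lines and the filter value of 7.71 as a dotted line. Most pairs of points nearly coincide. The widest gap is that of Eif2s2, at 10.41 in the knockout and 11.05 in the heterozygote.

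The offset between the arrays varied with level, so members were also read beside genes of the same level. Among genes with means from 8 to 9, the 6 members had a median difference of -0.31, and all 2373 genes -0.03. From 9 to 10, the 15 members were at -0.06 and all 2557 genes at -0.11. From 10 to 11, the 13 members were at -0.15 and all 2488 genes at -0.08. From 11 to 12, the 10 members were at -0.11 and all 1412 genes at -0.04, and from 12 to 13 the 9 members were at -0.14 and all 495 genes at -0.04. From 13 to 14, the 3 members were at -0.11 and all 108 genes at -0.05, and the highest bin held 1 member, Eef1a1. Members had the lower median in each of these bins other than 9 to 10.

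**Figure D2:**
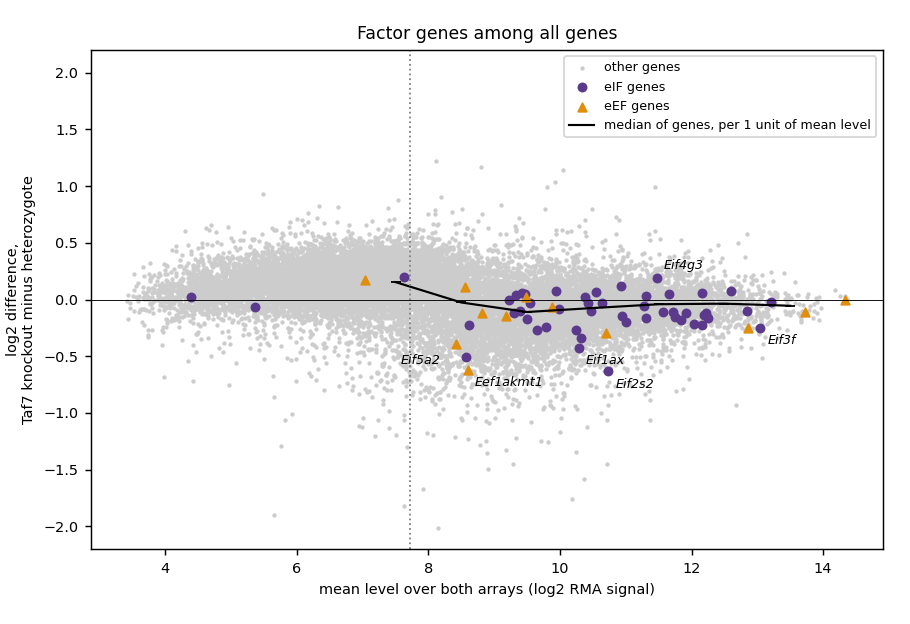
Log2 difference (knockout minus heterozygote) against the mean log2 level over both arrays, for eIF genes (purple circles), eEF genes (orange triangles) and all other genes (grey). The black line joins the medians of all genes above the filter in steps of 1 log2 unit, which fall to -0.11 between 9 and 10, and the dotted line is the filter. Most members lie within the grey cloud.

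Some translation factor mRNAs begin with a terminal oligopyrimidine tract, a C followed by a run of C and T at the very first base, through which mTORC1 signalling controls their translation. RefSeq start windows (build GRCm38.p6) were matched by symbol for 48 of the 61 members, 46 of them above the filter. The search, on the transcribed strand only, was for a C followed by at least 7 bases that are each C or T, within 20 bases before to 40 after an annotated start. A gene was counted if any of its annotated starts had such a tract. That held for 15 of the 46 members (32.6%), against 20.3% of 8436 genes above the filter. Counted by single window, which is not the same measure, it was 17.2% of 32851 start windows in the reference. Of the 8 eIF3 subunits with a window, 5 held a tract. Of the 46 members, 31 had no tract, so its absence from a lower member is common and no link to the differences is shown. The windows below were picked to show members with a tract, in capitals, and 3 of the 6 members lower by at least 0.32 that had none:
Eif3f: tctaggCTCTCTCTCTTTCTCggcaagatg
Eif3l: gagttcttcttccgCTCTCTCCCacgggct
Eif3k: ggcgctggtgctgaaagcgCCTTTCCCTTT
Eif2s3x: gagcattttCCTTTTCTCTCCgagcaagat
Eef1a1: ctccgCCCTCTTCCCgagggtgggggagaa
Eif2s2: aaggttggctttactgtacgcctgcgcttt
Eif5a2: gcccgggctgggcgggccggggcggggagc
Eif1ax: ggaggagggcggggagaagccccgcccgct

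Of the other 3 such members, Eif4a3 had no tract, Eef2k had one at 1 of its annotated starts, and Eef1akmt1 had no window. Each of these 30-base windows spans the annotated start on the gene's own strand, and begins 10 bases before it, or 6 for Eif3k. The search did not require a tract to begin at the first base, so the capitals need not be terminal tracts. Eif3f lies at chr7:108934405-108934434 on the plus strand, Eif3l at chr15:79075213-79075242 on the plus strand, and Eif3k at chr7:28981865-28981894 on the minus strand. Eif2s3x lies at chrX:94212632-94212661 and Eef1a1 at chr9:78481705-78481734, both on the minus strand. Eif2s2 lies at chr2:154892887-154892916 on the minus strand, Eif5a2 at chr3:28781267-28781296 on the plus strand and Eif1ax at chrX:159372168-159372197 on the plus strand. The 15 members with a tract had a median difference of -0.15, with 12 lower, and the 31 without one -0.11, with 25 lower. The search does not separate known tract mRNAs cleanly: of 11 with a window on a list of mRNAs known to carry the tract, 7 were found and 4 (Eef1b2, Eef2, Eif4b and Eif4a2) were not. Over all genes above the filter the medians were -0.06 with a tract and -0.05 without. Of 14 members measured from that list, drawn from mammals, 13 were lower, with a median of -0.15, where 75.4% of all members and 59.1% of all genes were lower; Eef1a1 turned positive after centring and trend removal, and Eif3m after these and quantile normalization. The start used by these T cells was not measured. The TATA box letters TATAAA, searched on both strands from 40 to 15 bases before the start, were in none of the 46 members' windows, and in 1.51% of the genes above the filter and 2.48% of all start windows.

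Among the factors that scan for the start codon, Eif1ax was the lower one. Eif1ax, the X-linked gene of eIF1A, had a level of 10.07 in the knockout and 10.50 in the heterozygote, a difference of -0.43 or 1.35-fold lower. Its autosomal paralog Eif1a was at 9.35 in the knockout and 9.31 in the heterozygote, a difference of 0.04. Clusters that Eif1a shares with other symbols ranged from -0.39 to 0.01, so its value is uncertain. Eif1b, which resembles eIF1, was at 11.23 and 11.40 in the same order, a difference of -0.17. Eif1ad, which encodes an eIF1A domain protein, differed by -0.03, a sign that turned after centring, trend removal and quantile normalization.

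The gene of the beta subunit of eIF2 had the lowest difference of all members in the deposited values, and after trend removal and quantile normalization it was second to Eef1akmt1. Eif2s2 had a level of 10.41 in the knockout and 11.05 in the heterozygote, a difference of -0.63 or 1.55-fold lower, and ranked 243 from the lowest of the 10457 genes. A second cluster of Eif2s2 gave 8.16 in the knockout and 8.90 in the heterozygote, at -0.74, so both clusters were lower in the knockout. The used cluster was at -0.57 after trend removal and -0.56 after quantile normalization, both short of 1.5-fold, where Eef1akmt1 was at -0.63 and -0.58. Eif2s3x, the X-linked gene of the gamma subunit, was at 12.17 in the knockout and 12.34 in the heterozygote, a difference of -0.16. Its Y-linked counterpart Eif2s3y was far below the filter on both arrays, at 4.40 and 4.37. Eif2s1, for the alpha subunit that the stress kinases phosphorylate, was not analysed here.

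Genes of eIF2B, which reloads eIF2 with GTP, showed no shared direction. Eif2b3 was the lowest with 9.52 in the knockout and 9.78 in the heterozygote, a difference of -0.27, followed by Eif2b4 at -0.10 and Eif2b1 at -0.03. Eif2b5, for the catalytic subunit, was at 0.03 and Eif2b2 at 0.07. The median of the 5 was -0.03, and it turned positive after centring, trend removal and quantile normalization.

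The 4 eIF2 kinases, each of which shuts down initiation under a different stress, were all slightly lower, as were most genes of their levels. Their median difference was -0.15, at a median level of 9.40. Of all genes from 9 to 10, where Eif2ak3 and Eif2ak4 lie, 70.6% were lower, with a median of -0.11. From 8 to 9, where Eif2ak2 lies, 53.3% were lower, with a median of -0.03. From 10 to 11, where Eif2ak1 lies, 67.2% were lower, with a median of -0.08. Eif2ak2, the double-stranded RNA sensor PKR, was at 8.50 in the knockout and 8.73 in the heterozygote, a difference of -0.23. Eif2ak3, the endoplasmic reticulum sensor PERK, differed by -0.17, Eif2ak4, the amino acid sensor GCN2, by -0.12, and Eif2ak1, the heme-regulated kinase, by -0.10. None of the 4 differed by 0.32 or more, and all 4 stayed lower under each other scaling of the arrays. Eif2a, an alternative initiation factor distinct from eIF2, differed by -0.27, and Eif2d, which acts in reinitiation and recycling, by 0.08.

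The eIF3 subunits, which form the largest initiation complex, were lower in 10 of 11 cases, each by less than 0.32, and in 9 of 11 after centring, trend removal or quantile normalization. Eif3f was the lowest, at 12.92 in the knockout and 13.17 in the heterozygote, a difference of -0.25 or 1.19-fold lower. Eif3e was at 11.93 in the knockout and 12.14 in the heterozygote, a difference of -0.21. Eif3i differed by -0.20, Eif3k by -0.18, Eif3l and Eif3a by -0.15, Eif3c by -0.12, Eif3b by -0.11 and Eif3h by -0.10. Eif3d, a subunit that can bind the cap itself, was the exception, at 11.68 in the knockout and 11.63 in the heterozygote, a difference of 0.05. The median of the 11 was -0.15, against -0.05 for all genes above the filter. Under those 3 other scalings Eif3m was the one that turned, and the median stayed below 0, at -0.09 with the trend removed. Eif3m is uncertain in size. The cluster used was at 10.42 in the knockout and 10.45 in the heterozygote, a difference of -0.03, while its other cluster was at 9.98 in the knockout and 10.41 in the heterozygote, a difference of -0.43.

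**Figure D3:**
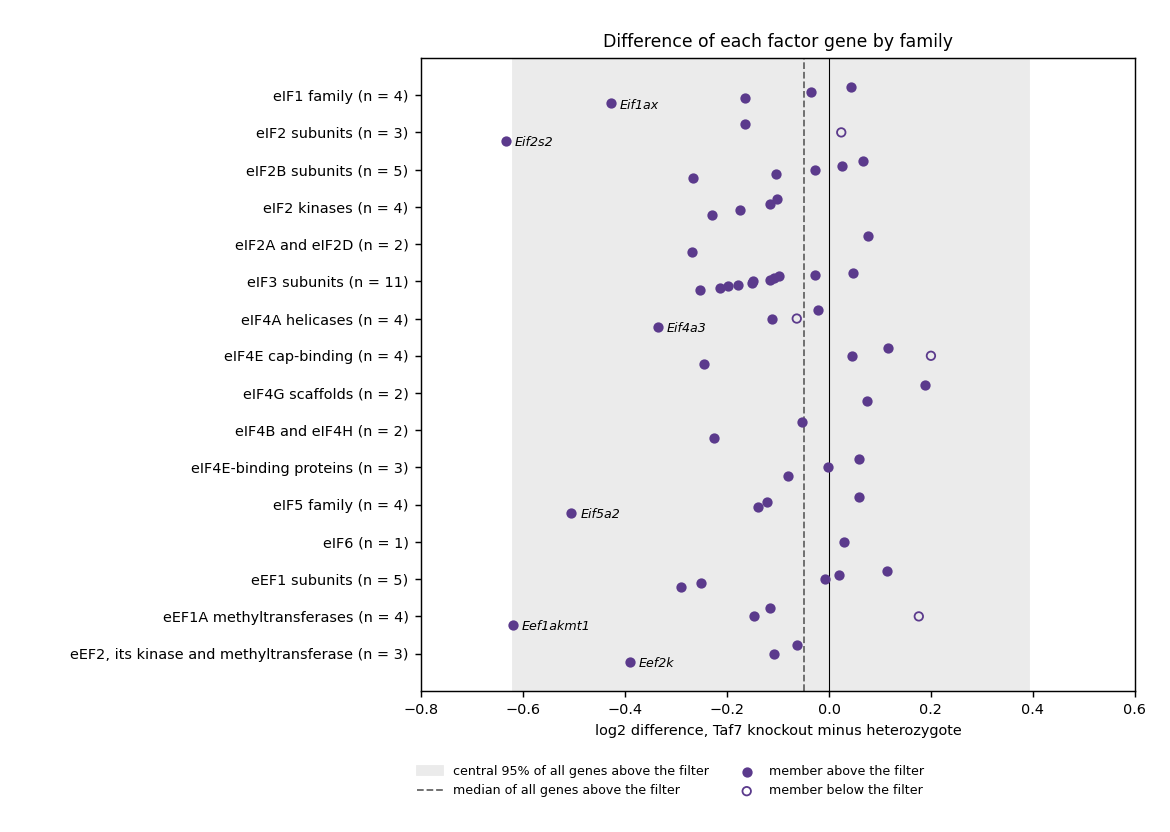
Log2 difference (knockout minus heterozygote) of each translation factor gene, 1 row per family, with filled points above and open points below the filter on low values. The grey band holds the central 95% of all genes above the filter, from -0.62 to 0.39, and the dashed line is their median, -0.05. Eif2s2 and Eef1akmt1 lie at the lower edge of the band. Of the 11 eIF3 points 10 lie below 0, as do 59.1% of all genes above the filter.

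Genes of the cap-binding complex eIF4F were split. The eIF4G scaffolds were higher: Eif4g3 was at 11.57 in the knockout and 11.38 in the heterozygote, a difference of 0.19 or 1.14-fold higher, the highest of the members above the filter. Eif4g2, a related scaffold that cannot bind eIF4E, was at 12.64 in the knockout and 12.56 in the heterozygote, a difference of 0.07. Both stayed higher under each other scaling, and neither reached the 0.32 that 5.03% of all genes passed. Eif4g1, the main scaffold, was not analysed here.

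The cap-binding eIF4E genes moved apart in sign. Eif4e, the main cap-binding gene, was at 9.66 in the knockout and 9.91 in the heterozygote, a difference of -0.24, with its other clusters at -0.18 and 0.07. Eif4e2, which represses translation of bound mRNAs, was at 10.99 in the knockout and 10.87 in the heterozygote, a difference of 0.12. Eif4e3 differed by 0.04, and Eif4e1b, best known from oocytes, was near the filter value on both arrays with a difference of 0.20.

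The helicase genes were lower, but unequally. Eif4a3, the helicase of the exon junction complex, was at 10.15 in the knockout and 10.48 in the heterozygote, a difference of -0.34 or 1.26-fold lower. It was smaller in size than 0.32 after centring, at -0.29, and after trend removal and quantile normalization, at -0.26 in both. Another 2 clusters, assigned to both Eif4a3 and its near copy Eif4a3l1, differed by only -0.04 each, so the lower value rests on 1 cluster. Eif4a2 differed by -0.11, and Eif4a1 by -0.02 with other clusters at -0.05 and -0.12; the sign of Eif4a1 turned after centring, trend removal and quantile normalization. Of the helicase cofactors, Eif4b was at 12.04 in the knockout and 12.27 in the heterozygote, a difference of -0.23, and Eif4h differed by -0.05, a sign that turned with trend removal.

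The proteins that bind and restrain eIF4E were on both sides of 0. Eif4ebp1 was at 9.22 on both arrays and turned slightly positive after centring, trend removal and quantile normalization, and Eif4ebp2 was at 12.19 in the knockout and 12.13 in the heterozygote, a difference of 0.06. Eif4enif1, a transporter that carries eIF4E into the nucleus and to decay bodies, differed by -0.08, a sign that turned with quantile normalization.

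The eIF5 family, which is named alike but acts at several steps, held the third lowest member. Eif5a2, a paralog of Eif5a that few normal tissues express, was at 8.31 in the knockout and 8.82 in the heterozygote, a difference of -0.51 or 1.42-fold lower. Eif5a, which helps ribosomes past stalling sequences and carries the amino acid hypusine, was at 12.12 in the knockout and 12.26 in the heterozygote, a difference of -0.14. Eif5, the GTPase activator of eIF2, differed by -0.12, Eif5b, the joining GTPase, by 0.06, and Eif6, which keeps free large subunits apart, by 0.03.

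Of the 11 elongation factor genes and their modifying enzymes above the filter, 2 were higher and 9 lower (81.8%), where 59.1% of all genes were lower. Eef1b2, a nucleotide exchange subunit of eEF1, was at 12.73 in the knockout and 12.99 in the heterozygote, a difference of -0.25. Eef1e1, which belongs to the multi-tRNA synthetase complex despite its name, was at 10.55 in the knockout and 10.84 in the heterozygote, a difference of -0.29. Eef1d differed by 0.02 and Eef1a2, the isoform of muscle and neurons, by 0.11. Eef1a1, the tRNA-delivering GTPase, was at 14.33 in the knockout and 14.34 in the heterozygote, a difference of -0.01 that turned positive after centring and trend removal. Its transcript has many pseudogene copies, and a cluster shared with Mir703 and another symbol was at -0.40, so the gene's value is uncertain. Eef1g was not analysed here. The median of the 5 eEF1 subunit genes was -0.01 and turned positive after centring and trend removal.

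Enzymes acting on the elongation factors held 2 of the 6 members that were lower by at least 0.32. That is 18.2% of the 11 eEF genes above the filter, where 13.3% of all genes were as much lower. Eef1akmt1, a lysine methyltransferase of eEF1A, was at 8.29 in the knockout and 8.91 in the heterozygote, a difference of -0.62 or 1.54-fold lower. Eef2k, the kinase that inhibits eEF2, was at 8.22 in the knockout and 8.61 in the heterozygote, a difference of -0.39 or 1.31-fold lower, while its other cluster, below the filter, differed by -0.10, and the average of both was at -0.24, short of 0.32. Eef1akmt2 differed by -0.15, Eef1aknmt by -0.12, Eef2kmt by -0.06, a sign that turned with trend removal and quantile normalization, and Eef2, the translocase itself, by -0.11. Genes with means from 8 to 9, where Eef1akmt1, Eef2k and Eif5a2 lie, had a central 95% range of -0.70 to 0.44, wider than the -0.56 to 0.28 of genes from 10 to 11, where Eif2s2 and Eif1ax lie. By that range Eif2s2 alone of these 5 lay outside its own level bin.

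**Figure D4:**
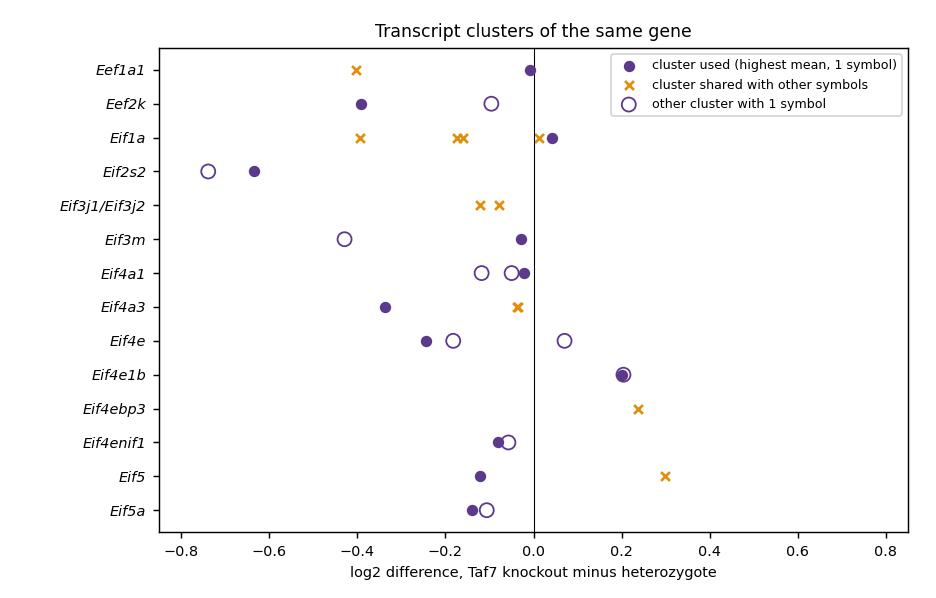
Log2 difference (knockout minus heterozygote) of every transcript cluster, for members with several clusters and for 3 genes found in shared clusters alone (Eif3j1, Eif3j2 and Eif4ebp3). Filled circles are the cluster used, open circles other clusters with the same single symbol, and crosses clusters shared with other symbols. The clusters of Eif2s2 lie together at -0.63 and -0.74, while those of Eif3m (-0.03 and -0.43), Eif4a3 and Eef1a1 lie apart.

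Other genes of translation were listed by role and read beside the factors. Of the 8 poly(A)-binding proteins and partners measured, 7 (87.5%) were lower, where 59.1% of all genes above the filter were. Their median was -0.10, and Paip2b turned positive with trend removal and quantile normalization. Larp4 was the lowest with -0.17, and Pabpc1, the main poly(A)-binding protein, was at 0.04. Termination and recycling genes had a median of -0.17 over the 5 above the filter. The release factor Etf1 was at 10.37 in the knockout and 10.70 in the heterozygote. Its difference of -0.3218 was just short of the fixed size of 0.3219. The rescue factor Pelo was at 8.13 and 7.83 in the same order, a difference of 0.30. The other members of the 5, Gspt1, Abce1 and Hbs1l, differed by -0.19, -0.17 and -0.10, and Hbs1l turned positive with averaged clusters.

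mTORC1 and MNK signalling genes had a median of 0.00, with 5 of 11 lower (45.5%), where 59.1% of all genes above the filter were. Mknk2, a kinase of eIF4E, was at 12.48 in the knockout and 12.13 in the heterozygote, a difference of 0.34 or 1.27-fold higher. Mlst8, an mTOR subunit, was at 9.47 in the knockout and 9.92 in the heterozygote, a difference of -0.45. Rheb, the GTPase that activates mTORC1, differed by -0.25, and the S6 kinase gene Rps6kb2 by 0.21.

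Initiation helpers outside the eIF names had a median of -0.02, which turned positive after centring, trend removal and quantile normalization. Of the 14, 9 (64.3%) were lower, where 59.1% of all genes above the filter were. Denr, which releases and reloads initiator tRNA, was at 9.01 in the knockout and 9.50 in the heterozygote, a difference of -0.48, the lowest of the list, followed by the helicase Ddx3x at -0.26. Dhx29, a scanning helicase, was the highest with 0.13.

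The integrated stress response is the program set off by the eIF2 kinases, and its list held both regulators of those kinases or of eIF2 phosphorylation and target genes. Of 17 genes, 7 were higher and 10 lower (58.8%), where 59.1% of all genes above the filter were lower. The median was -0.13, or -0.01 with averaged clusters or with genes of 1 cluster. Among the targets, Chac1 was at 8.34 in the knockout and 7.82 in the heterozygote, a difference of 0.52, and Atf5 was at 8.65 and 8.24 in the same order, a difference of 0.41. Sesn2, a sensor that restrains mTORC1, differed by 0.26. Psat1, an enzyme of serine synthesis, was at 9.08 in the knockout and 9.65 in the heterozygote, a difference of -0.56. The genes named from this list were its lowest and highest, so their place on both sides of 0 follows from that choice. Its genes above the filter that were not named ranged from -0.21 for Slc3a2 to 0.08 for Atf4. Of the regulators, the adaptor Nck1 differed by -0.36 and Impact, an inhibitor of GCN2 activation, by -0.21.

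Enzymes that modify eIF5A and eEF2 held the single gene of these lists above the filter that differed by 1.5-fold. Dph5, an enzyme of the diphthamide on eEF2, was at 10.67 in the knockout and 10.08 in the heterozygote, a difference of 0.59 or 1.51-fold higher, where 0.449% of all genes were as much higher. Dph6, another enzyme of that pathway, was at 10.68 in the knockout and 11.13 in the heterozygote, a difference of -0.45, and Dph3 was at -0.27. The median of the 8 was -0.07, a sign that turned with trend removal and quantile normalization.

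Mitochondrial translation factors, which serve a separate ribosome, had a median of -0.13 with 7 of 9 lower (77.8%), where 59.1% of all genes above the filter were. Of the 7, Gfm2 turned positive after centring, trend removal and quantile normalization. Guf1 was the lowest with -0.36, then Gfm1, the mitochondrial elongation factor G, with -0.25 and the recycling factor Mrrf with -0.22. Mtif2, the mitochondrial initiation factor, was at 0.03. The cytosolic eIF genes had a median of -0.11 and the eEF genes -0.12. All 3 sets had medians below that of all genes, -0.05, but the offset varied with level. The mitochondrial and eEF sets had median levels of 9.50 and 9.49, and all genes from 9 to 10 were at -0.11. Each set also held genes of other bins, so the bin of its median level is not its full background. The eEF genes above the filter had means from 8.42 for Eef2k to 14.34 for Eef1a1, and all genes from 8 to 9 were at -0.03. The eIF set had a median level of 10.83, and all genes from 10 to 11 were at -0.08. No test of a difference between the sets was possible.

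**Figure D5:**
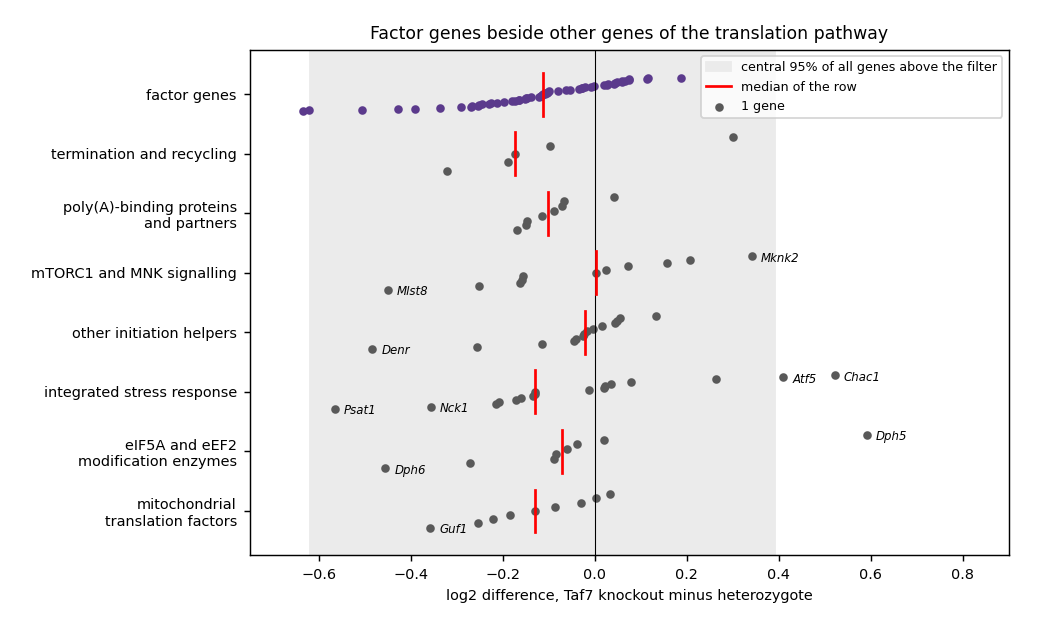
Log2 difference (knockout minus heterozygote) of the 57 translation factor genes above the filter (purple, top row) and of the genes of 7 other lists (grey), with the median of each row in red and the central 95% of all genes as a grey band. Genes with a difference of at least 0.32 in size (0.3219 before rounding) are named in the lower rows, which leaves out Etf1 at -0.3218. Dph5, Chac1 and Atf5 lie above the band's upper edge of 0.39.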

How the data were processed

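Total RNA of each sample was hybridised to 1 array. The authors deposited log2 signals per gene, made with RMA in Affymetrix Expression Console version 1.1 for the core gene set, per the series design text and the submitters' processing notes. RMA includes background correction and quantile normalization, yet the deposited medians were 7.75 in the knockout and 7.68 in the heterozygote. The design text names an exon array, while the probe table is that of a gene-level array; which was used was not settled. Of 35556 rows, 21789 had 1 gene symbol. All 61 members' gene identifiers were found in the reference gene table of GRCm38.p6. Of its 71 protein-coding symbols matching the rule, 10 had no cluster of their own and were not analysed here as members. No further normalization was applied. Counts were taken at a log2 difference of 0.3219, written as 0.32 above, and at folds of 1.5 and 2. Named were Taf7, every member, and for each other list up to 3 genes at either end, or all genes of a short list. Members and lists were chosen with earlier results of these data known. The difference and call steps were tested on simulated data. Alternatives were centring, removal of a loess trend (span 0.3), quantile normalization, averaged clusters, genes of 1 cluster, no filter, and filters at the 25th and 75th percentiles. The number of arrays limits the precision. The tools were matplotlib 3.10.9, statsmodels 0.14.6, pandas 2.3.3, numpy 2.4.6 and Python 3.11.15.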

Additional observations from a re-analysis of the deposited data

Results flagged for a closer look

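These values come from transcript clusters that the comparisons above did not use, and were picked out because they lay above the filter and differed by at least 0.32 on the log2 scale. The second cluster of Eif2s2 was at -0.74, on the same side as the cluster used. The second cluster of Eif3m was at -0.43, against -0.03 for the cluster used. A cluster shared by Eef1a1, Mir703 and another symbol was at -0.40, with levels of 11.93 in the knockout and 12.34 in the heterozygote, against -0.01 for the cluster of Eef1a1 alone. A cluster shared by Eif1a and 7 other symbols was at -0.39, against 0.04 for the cluster of Eif1a alone. Other clusters of those same symbols did not reach that size, and were at -0.17, -0.16 and, below the filter, 0.01. Which transcripts the shared clusters measured was not tested.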

How the results depend on the processing

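No paired analysis was possible because there is a single array of either genotype, which also leaves no replicate to omit. The members' median difference of -0.11 stayed below 0 under all 8 alternatives, between -0.12 and -0.05. Of the 57 members above the filter, 48 kept their sign under centring, trend removal, quantile normalization and averaged clusters, and the other 9 had differences of at most 0.08 in size. The count of members higher by any amount was 14, and became 20 after centring, 22 with the trend removed, 21 with quantile normalization and 9 with the filter at the 75th percentile. The count lower by at least 0.32 was 6. It was 5 after centring, trend removal and quantile normalization, each without Eif4a3, 5 with averaged clusters, without Eef2k, 4 with genes of 1 cluster, and 3 at the 75th percentile filter, where 41 members were left; all of these were among the 6. The count at least 1.5-fold lower was 2, and 1 after centring, with the trend removed, with that filter and with genes of 1 cluster, and 0 with quantile normalization. At a size of 0.32, 72.6% of the differing genes were lower, and 57.4% after centring, 62.6% after quantile normalization, 47.9% with no filter, 53.9% with the filter at the 25th percentile and 84.0% with that at the 75th; at 1.5-fold it was 87.6%, and 77.6% after centring. Over all genes the count higher by at least 0.32 was 526, and 804 after centring; at 1.5-fold it was 47, and 71 after centring. Of single-gene differences under alternatives, 413 moved by no more than a robust SD and 3 by more, 2 for Eef1a1 and 1 for Eif3m. The SD was that of genes in the same bin of level, or of all genes above the filter where the bin held none. It was 0.12 to 0.32 in the bins from 7 to 14, wide beside the members' median, so a changed sign could pass as unmoved. Centring shifted genes by less than that. In the highest bin, with 5 genes, it was 0.03. Small differences of a few hundredths cannot be read from 1 array per genotype.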

Other observations

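Some translation factor genes are represented only by clusters shared with other symbols, which the comparisons above leave out. Eif3j1 and Eif3j2, near-identical genes of an eIF3-associated protein, shared 2 clusters, with differences of -0.12 and -0.08. A cluster shared by Eif4ebp3, a repressor of eIF4E, and Ankhd1 was at 10.29 in the knockout and 10.05 in the heterozygote, a difference of 0.24. A cluster shared by Eif5 and the small nucleolar RNA Snora28 was at 11.07 in the knockout and 10.77 in the heterozygote, a difference of 0.30, while the cluster of Eif5 alone was at -0.12. RNA of these paired genes cannot be told apart by such a cluster.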
